A study of Mus musculus with 11 samples.

Results

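The transcripts described here encode proteins of the sperm tail, the acrosome and the differentiating spermatid. They are the 44 genes of a list of such transcripts, and all 44 were found by symbol among the 49585 genes of the deposited table. The embryos, of mouse strain C57BL/6, came either from round spermatid injection (ROSI) or from intracytoplasmic sperm injection (ICSI), and total RNA was sequenced with a stranded SMART-seq kit from 1 ng of RNA. There were 2 libraries of ROSI zygotes, 3 of ICSI zygotes, 3 of ROSI 2-cell embryos and 3 of ICSI 2-cell embryos. ROSI embryos of both stages had been activated in calcium-free CZB medium with 5 mM strontium chloride for 1 to 2 h and then moved to KSOM medium, whereas ICSI embryos were cultured in KSOM. The kind of male cell and the activation therefore differ together between ROSI and ICSI, and their parts cannot be told apart. The labels give no number of embryos per library, no collection time, and no statement that replicates came from separate experiments, so p-values measure the spread between these libraries, which may be technical.

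A round spermatid is the haploid male germ cell just after meiosis. It still holds its cytoplasm and builds the acrosome and the tail while it stores many messenger RNAs for later translation. A mature sperm has shed most of its cytoplasm and has little RNA. ROSI places a spermatid in the oocyte, and ICSI places a sperm there. In the first days after fertilization the embryo also degrades maternal RNA and starts transcription from its own genome.

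By GENCODE M21 on genome build mm10, all 44 genes are protein-coding. They lie on 15 chromosomes, none on the X, and 8 have a single exon. Exon length per gene runs from 550 to 9919 bases. Promoter windows from RefSeq (GRCm38.p6) were found for 35 of the 44 genes, 49 windows in all, each reaching from 250 bases before the start to 50 after it. The TATA box letters TATAAA stood on either strand in 8.16% of these windows, against 13.6% of all 32851 windows. The core of the cyclic AMP response element, TGACG, stood in 32.7% against 20.8%, and the full element TGACGTCA, which holds that core, in 2.04% against 1.79%. The E-box CACGTG stood in 6.12% against 7.15%. Below, the 250 bases before the start are shown for 4 genes that were higher after ROSI, 5′ to 3′ on the gene's strand, with capitals marking TATAAA, its reverse complement TTTATA or TGACG. The windows differ in these letters: Crisp2 has TATAAA at 118 and 97 bases before its start, Gsg1 at 175, Meig1 has TGACG at 134, and Smcp has none of them. All 4 windows are on the minus strand, at chr17:40794147-40794396 (Crisp2), chr3:92589074-92589323 (Smcp), chr6:135254337-135254586 (Gsg1, 1 of its 2 windows) and chr2:3418598-3418847 (Meig1, 1 of its 3 windows). For Gsg1 and Meig1 the window with the most searched motifs was shown, so their letters are a result of that choice.
Crisp2: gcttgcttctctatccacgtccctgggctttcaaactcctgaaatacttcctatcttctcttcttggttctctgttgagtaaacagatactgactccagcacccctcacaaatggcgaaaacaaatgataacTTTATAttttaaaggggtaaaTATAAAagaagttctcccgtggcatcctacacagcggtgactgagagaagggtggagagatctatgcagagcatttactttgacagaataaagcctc
Smcp: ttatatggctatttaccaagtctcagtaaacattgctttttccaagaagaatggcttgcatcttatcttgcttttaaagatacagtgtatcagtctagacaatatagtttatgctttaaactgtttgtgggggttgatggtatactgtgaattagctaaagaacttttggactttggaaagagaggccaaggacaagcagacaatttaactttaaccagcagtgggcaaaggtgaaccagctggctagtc
Gsg1: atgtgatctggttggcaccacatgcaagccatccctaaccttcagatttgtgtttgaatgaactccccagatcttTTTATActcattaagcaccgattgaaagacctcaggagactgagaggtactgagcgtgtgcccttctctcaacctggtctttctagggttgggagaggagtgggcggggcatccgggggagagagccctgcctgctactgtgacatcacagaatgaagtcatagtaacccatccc
Meig1: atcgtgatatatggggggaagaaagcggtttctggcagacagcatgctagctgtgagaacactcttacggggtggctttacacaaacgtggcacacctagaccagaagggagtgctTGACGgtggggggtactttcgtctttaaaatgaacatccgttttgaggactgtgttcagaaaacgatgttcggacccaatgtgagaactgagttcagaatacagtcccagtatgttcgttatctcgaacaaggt

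Levels are given in TPM, a relative abundance scaled by gene length and by the total of each library. Multiplying TPM by exon length gave values within 0.05 of a whole read for 34 of the 44 genes in every library. Reads behind a value are stated only for genes among those. The recovered depth was 30.4 M and 85.9 M reads (M, 1000000) in the ROSI zygote libraries, 70.7 M to 83.0 M in the ICSI zygotes, 20.5 M to 23.0 M in the ROSI 2-cell embryos and 8.48 M to 32.9 M in the ICSI 2-cell embryos. Together the 44 genes made up 0.0408% and 0.0274% of TPM in ROSI zygotes and 0.0198% to 0.0231% in ICSI zygotes. In 2-cell embryos they made up 0.0177% to 0.0202% after ROSI and 0.0139% to 0.0163% after ICSI. The zygote libraries differ in a further way: the share of small nuclear and nucleolar RNA was 0.611% in replicate 1 of ROSI and 0.572% in replicate 1 of ICSI, but 2.58% in ROSI replicate 2 and 1.64% in each of ICSI replicates 2 and 3. ROSI against ICSI is therefore also given within each of these kinds of library.

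**Figure D1:**
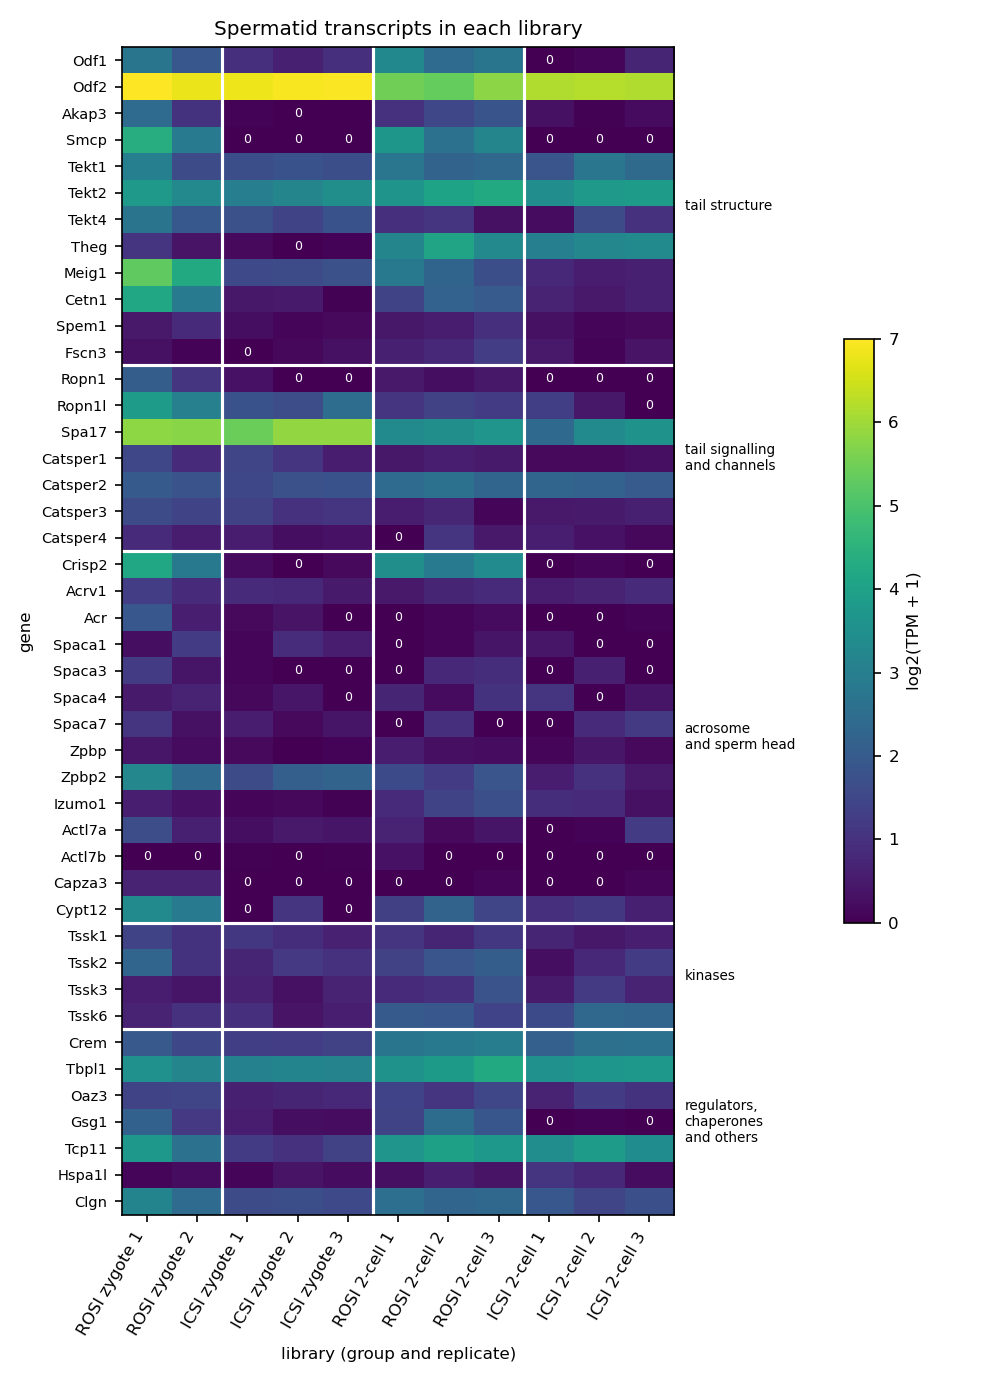
Level of all 44 transcripts (one line per gene, grouped by role) in each of the 11 libraries (columns), as log2(TPM + 1) in color, with a white 0 where the deposited value is 0. Smcp and Crisp2 stand out in the ROSI columns and are at or near 0 in the ICSI columns, while Odf2 is high in all 11.

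In zygotes, ROSI libraries carried spermatid transcripts that ICSI libraries lacked or held at low level. Smcp, a cysteine-rich protein of the sperm mitochondrial sheath, was at 19.6 and 6.43 TPM in the ROSI zygotes and at 0 in all 3 ICSI zygotes. The ROSI values rest on 180 and 172 reads. Against the level of 3 reads in the ICSI library where that level is highest (0.148 TPM), the ROSI mean of 13.0 ± 9.33 TPM (SD, n = 2) was at least 87.8-fold higher. In such bulk libraries, fewer embryos carrying a transcript and less of it per embryo cannot be told apart, nor can RNA brought in by the male cell and RNA transcribed in the embryo.

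Meig1, a protein of the spermatid manchette needed to build the tail, was at 38.5 and 18.0 TPM in ROSI zygotes and at 1.93, 2.10 and 2.34 TPM in ICSI zygotes. The lower ROSI library was still well above the highest ICSI library, and the ratio of means was 13.3. Cetn1, the centrin of the male germ line found at the centriole and tail base, was at 17.0 and 6.35 TPM after ROSI and at 0.373, 0.416 and 0.0362 TPM after ICSI. Its groups did not overlap either, with a ratio of means of 42.5.

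Crisp2, a cysteine-rich secretory protein of the acrosome and tail, was at 17.2 and 6.06 TPM in ROSI zygotes and at 0.149, 0 and 0.124 TPM in ICSI zygotes. Cypt12 belongs to a family of cysteine-rich proteins of the perinuclear theca, the layer around the sperm nucleus. It was at 9.23 and 6.20 TPM after ROSI (51 and 100 reads) and at 0, 1.09 and 0 TPM after ICSI (0, 15 and 0 reads). Cypt12 is a single-exon gene (chromosome 3, 17948410 to 17948959) with close relatives in its family, so how its reads were assigned is uncertain. Tcp11, a testis protein linked to sperm motility, was at 12.2 and 5.21 TPM after ROSI and at 1.35, 1.01 and 1.53 TPM after ICSI. It shares 447 exon bases with AC132460.1 on the same strand, so its reads are uncertain at both stages. In each of these genes the ROSI and ICSI zygotes did not overlap.

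These were the 6 genes past the threshold in zygotes (limma on log2(TPM + 1), Benjamini-Hochberg over 21938 genes, adjusted p under 0.05), all higher after ROSI. On that scale, which understates the change of low genes, the differences were 3.63 for Smcp (SE 0.39, adjusted p = 0.0102), 3.38 for Crisp2 (SE 0.34, adjusted p = 0.0102), 3.19 for Cetn1 (SE 0.36, adjusted p = 0.0102) and 3.14 for Meig1 (SE 0.34, adjusted p = 0.0102). Cypt12 differed by 2.75 (SE 0.38, adjusted p = 0.0291) and Tcp11 by 1.98 (SE 0.28, adjusted p = 0.0349). Of all genes tested, 0.114% were called higher and 0.0319% lower, against 6 and 0 of the 33 listed genes that passed the filter of 1 TPM in 2 libraries. Genes near 0 after ICSI could pass that filter only through their ROSI values, so the share of 33 is a description. Over all 44 genes without the filter, 40 had a positive difference and the median was 0.54, beside -0.02 for all 41516 genes above 0. Many of those 41516 lie under the filter, where differences on this scale tend to be small. The share of all genes with a positive difference was not computed.

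ROSI zygote replicate 1 was above replicate 2 in all 6 genes, by 1.49 times for Cypt12 to 3.05 times for Smcp. In Spa17 and Odf2, high in every zygote, the same ratio was 1.05 and 1.13. In other genes whose zygote groups overlapped it varied, with 3.45 for Tekt1, 3.75 for Tssk2 and 0.598 for Tssk6. A higher replicate 1 was therefore not confined to the 6 genes. Between the replicates numbered 1, which are poor in small nuclear RNA, the 6 differences ran from 2.49 (Tcp11) to 4.37 (Smcp). Among the other zygote libraries, rich in it, they ran from 1.46 (Tcp11) to 2.89 (Smcp). The groups did not overlap in these 6 genes, so a positive difference in both kinds was fixed in advance. Each kind holds 1 ROSI library, so only the sizes are given, as a description. Crisp2 stayed past the threshold when any 1 of the 11 libraries was left out, with adjusted p up to 0.0493. Smcp lost its call without ICSI zygote replicate 3 (adjusted p = 0.0517), Meig1 and Cetn1 lost theirs without that library or without ROSI zygote replicate 1 (adjusted p up to 0.0639 and 0.057), and Cypt12 kept its call in 5 of 11 omissions and Tcp11 in 1. With the 2 zygote groups alone in the limma fit, 0 genes of the list passed (adjusted p of the 6 from 0.215 to 0.272).

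**Figure D2:**
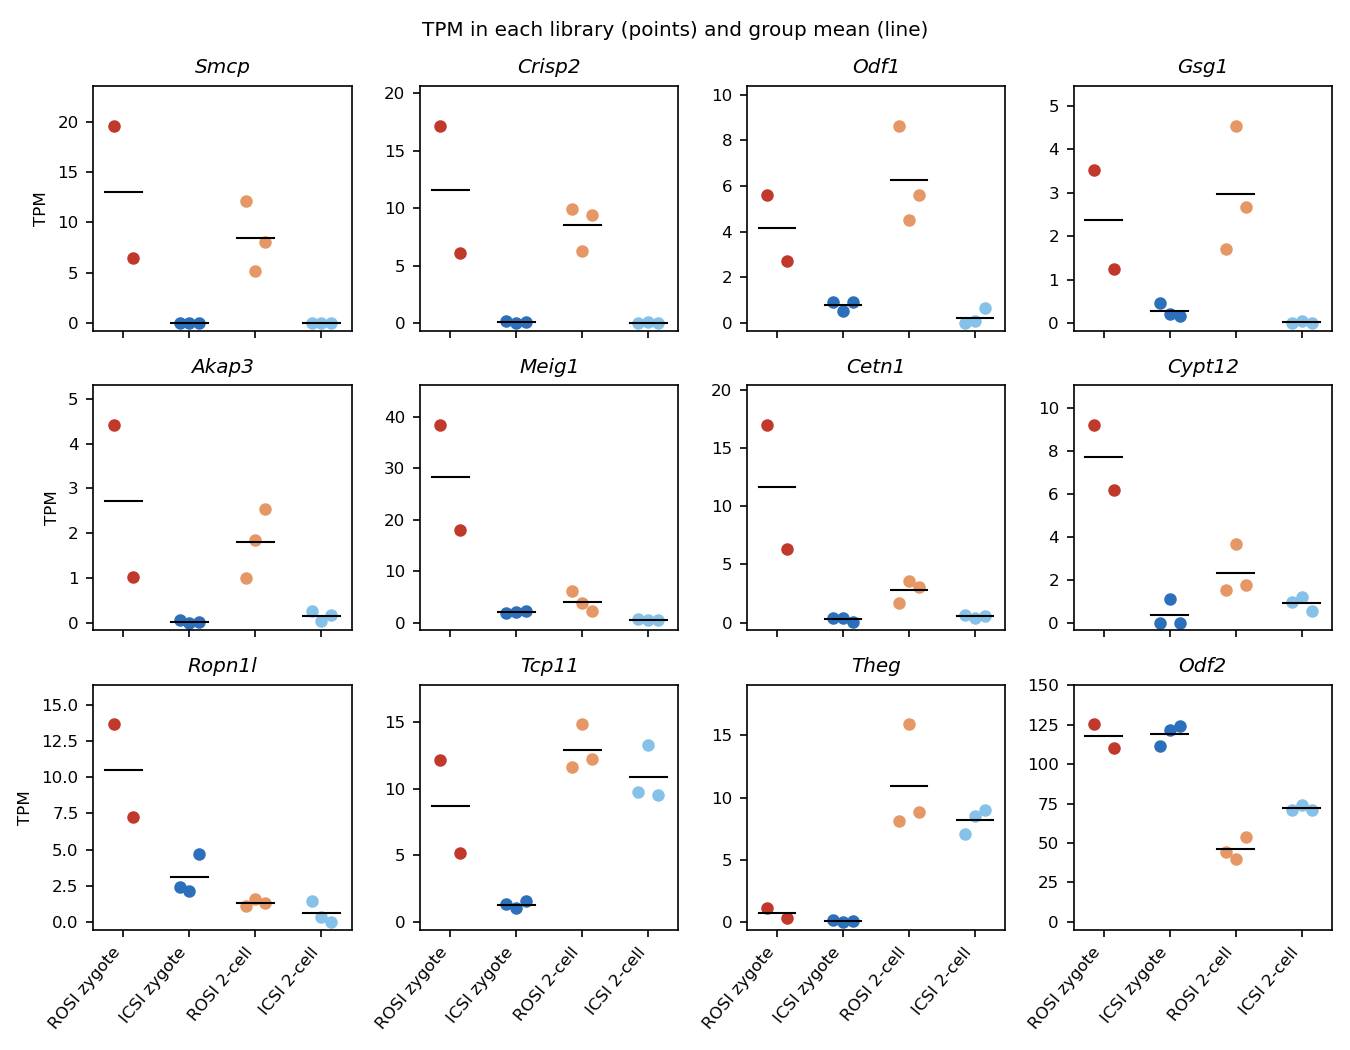
TPM of 12 transcripts in each library (points; lines are group means; the vertical scale differs between panels) for ROSI and ICSI zygotes and 2-cell embryos. Smcp, Crisp2, Odf1, Gsg1 and Akap3 keep ROSI points above ICSI points at both stages, whereas Tcp11 and Theg points overlap between ROSI and ICSI 2-cell embryos.

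The same order held in most of the list. Every ROSI zygote was above every ICSI zygote in 30 of the 44 genes and below in 0, beside 6.81% and 13.5% of all genes above 0. By role these were 8 of 12 tail structure genes, 5 of 7 genes of tail signalling and channels, 11 of 14 genes of the acrosome and sperm head, 0 of 4 testis-specific kinases and 6 of 7 regulators, chaperones and others. At an unadjusted p under 0.05 (limma), 16 of the 33 tested genes were higher and 0 lower, beside 2.17% and 4.17% of all genes tested. Here too, genes near 0 after ICSI passed the filter only through their ROSI values, so the share of 33 is a description.

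Several well-known spermatid genes were in this order without passing the adjusted threshold in zygotes. Akap3, an anchor for protein kinase A in the fibrous sheath of the tail, was at 4.42 and 1.03 TPM after ROSI (140 and 95 reads) and at 0.0492, 0 and 0.0143 TPM after ICSI (4, 0 and 1 reads). The difference was 1.70 (SE 0.38, adjusted p = 0.146). Odf1, a core protein of the outer dense fibers, was at 5.59 and 2.72 TPM against 0.947, 0.541 and 0.940 TPM, a difference of 1.46 (SE 0.33, adjusted p = 0.148). Ropn1l, a ropporin of the fibrous sheath, was at 13.7 and 7.27 TPM against 2.43, 2.15 and 4.71 TPM, a difference of 1.48 (SE 0.39, adjusted p = 0.265). In all 3 the lower ROSI library was above the highest ICSI library.

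Gsg1, a binding partner of the testis poly(A) polymerase, was at 3.52 and 1.25 TPM after ROSI (56 and 58 reads) and at 0.464, 0.201 and 0.171 TPM after ICSI (19, 8 and 6 reads), a difference of 1.32 (SE 0.35, adjusted p = 0.253). Clgn, a germ-cell chaperone of the endoplasmic reticulum needed to fold sperm surface proteins, was at 7.89 and 4.43 TPM against 2.06, 2.20 and 1.91 TPM, a difference of 1.19 (SE 0.22, adjusted p = 0.0782). Zpbp2, a protein of the acrosomal matrix, was at 8.46 and 4.30 TPM against 2.09, 3.36 and 3.70 TPM, a difference of 0.83 (SE 0.30, adjusted p = 0.581). ICSI zygotes also held a measurable level of these genes, and Zpbp2 and Clgn were above 1 TPM in each of the 3.

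Capza3, an actin-capping subunit of the sperm head, was the other transcript at 0 in all 3 ICSI zygotes. It was at 0.587 and 0.603 TPM in the ROSI zygotes (9 and 27 reads), at least 6.71-fold above the level of 3 reads. It lay under the filter. In the limma fit without the filter Capza3 was higher in ROSI zygotes (0.67, SE 0.07, adjusted p = 0.0101), which made 7 called genes. It was lower in ROSI 2-cell embryos than in ROSI zygotes (-0.64, SE 0.07, adjusted p = 3.97e-05). The ROSI 2-cell values were 0, 0 and 0.0795 TPM (0, 0 and 1 reads). Each was under the level of 3 reads there (0.182 to 0.238 TPM). Values at or near 0 vary little, so the small SE and p of Capza3 rest partly on that floor. Of the 44 genes, 12 were at 0 in 1 or more ICSI zygote libraries, and 1, the actin-like Actl7b, was at 0 in both ROSI zygotes.

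Another kind of transcript was abundant in every zygote. Odf2, an outer dense fiber protein that is also a part of the centrosome in other cells, was at 125 and 110 TPM in ROSI zygotes and at 111, 122 and 124 TPM in ICSI zygotes. Spa17, a sperm protein that binds kinase anchors, was at 55.3 and 52.6 TPM against 42.3, 57.4 and 57.5 TPM. For both genes the groups overlapped, with differences of -0.02 (SE 0.13) and 0.05 (SE 0.29). Tekt2, a tektin of the tail's microtubules, was at 12.5 and 8.89 TPM against 6.93, 8.16 and 10.1 TPM, also overlapping.

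Tbpl1, a TATA-binding protein relative needed for spermatid maturation, was at 10.7 and 8.02 TPM against 7.44, 7.91 and 7.84 TPM, a difference of 0.24 (SE 0.19, adjusted p = 1). Crem, the activator of many spermatid genes through the cyclic AMP response element, was at 2.90 and 1.85 TPM against 1.46, 1.42 and 1.54 TPM, a difference of 0.43 (SE 0.19, adjusted p = 0.786). Theg, a gene of haploid male germ cells, was low in all zygotes, at 1.08 and 0.284 TPM (17 and 13 reads) against 0.124, 0 and 0.0577 TPM. The 4 testis-specific kinases Tssk1, Tssk2, Tssk3 and Tssk6 overlapped between the groups, and their highest zygote value was 3.88 TPM, for Tssk2 in ROSI replicate 1.

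At the 2-cell stage, 8 of the 33 tested transcripts were higher after ROSI and 1 was lower, beside 4.93% and 4.58% of all genes tested. Smcp, Crisp2, Odf1, Gsg1, Akap3 and Cetn1 were under 1 TPM in every ICSI library of both stages. They could pass the filter only through their ROSI values, so the share of 33 is a description here too. Smcp was at 12.1, 5.22 and 8.11 TPM in ROSI embryos (119, 47 and 61 reads) and at 0 in all 3 ICSI embryos. Its mean of 8.48 ± 3.45 TPM (SD, n = 3) was at least 9.77-fold above the level of 3 reads in the shallowest ICSI library, 0.868 TPM. Crisp2 was at 9.91, 6.28 and 9.44 TPM after ROSI and at 0, 0.0913 and 0 TPM after ICSI. Neither gene had an ICSI 2-cell library near the ROSI range.

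Odf1 was at 8.65, 4.50 and 5.60 TPM in ROSI 2-cell embryos (103, 49 and 51 reads) and at 0, 0.0754 and 0.662 TPM in ICSI 2-cell embryos (0, 1 and 10 reads). Gsg1 was at 1.70, 4.54 and 2.68 TPM (29, 71 and 35 reads) against 0, 0.0526 and 0 TPM (0, 1 and 0 reads). Akap3 was at 1.00, 1.83 and 2.54 TPM (34, 57 and 66 reads) against 0.251, 0.0264 and 0.162 TPM (3, 1 and 7 reads). In all 3 the lowest ROSI embryo library exceeded the highest ICSI one.

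Meig1 was at 6.15, 3.78 and 2.20 TPM (73, 41 and 20 reads) against 0.719, 0.454 and 0.531 TPM (3, 6 and 8 reads). The ratio of means, 7.12, therefore rests on few ICSI reads. Cetn1 was at 1.71, 3.58 and 3.02 TPM against 0.635, 0.401 and 0.528 TPM, a ratio of 5.31. Its value in ICSI replicate 1 was near the approximate level of 3 reads there, 0.572 TPM. Clgn was at 4.91, 3.83 and 4.19 TPM against 2.76, 1.74 and 2.25 TPM, a ratio of 1.92. The groups did not overlap in these 3 genes either.

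Odf2 went the other way. It was at 44.0, 39.9 and 53.9 TPM in ROSI 2-cell embryos and at 70.8, 74.0 and 71.0 TPM in ICSI 2-cell embryos, a ratio of 0.639. It was the 1 gene of the 44 in which every ROSI 2-cell library was below every ICSI one. An antisense gene, Gm23865, overlaps 97 of its 9919 exon bases. Of the 44 genes, 16 have such an overlap, and whether the counting used strand is not given in the sources used here. The largest are 2255 of 4326 bases in Oaz3 (with Tdrkh), 1778 of 2472 in Hspa1l and 1308 of 1439 in Actl7b. Other overlaps larger than in Odf2 include 293 of 1586 bases in Gsg1, 391 of 1061 in Spa17 and 396 of 1900 in Tekt2. They also include 407 bases in Tbpl1, 472 in Crem and 107 in Capza3.

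These 9 genes passed the threshold in 2-cell embryos, 8 higher and 1 lower after ROSI, of 33 tested. The differences (limma, log2(TPM + 1)) were 3.19 for Crisp2 (SE 0.30, adjusted p = 0.00234), 3.18 for Smcp (SE 0.35, adjusted p = 0.00323), 2.54 for Odf1 (SE 0.29, adjusted p = 0.00323), 1.90 for Gsg1 (SE 0.31, adjusted p = 0.00757) and 1.61 for Meig1 (SE 0.31, adjusted p = 0.0135). Cetn1 differed by 1.28 (adjusted p = 0.034), Akap3 by 1.25 (adjusted p = 0.0463), Clgn by 0.72 (adjusted p = 0.049) and Odf2 by -0.65 (adjusted p = 0.00955). By role, 5 of 10 tested tail structure genes were called higher and 1 lower, with 1 of 7 of the acrosome and head, 2 of 6 regulators, chaperones and others, 0 of 6 in tail signalling and channels and 0 of 4 kinases. Because of the filter these shares are a description as well. Over all 44 genes without the filter the median difference was 0.33, beside 0.04 for all genes, and 35 were positive. The share of all genes that were positive was not computed here either.

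Crisp2, Smcp and Odf1 kept their 2-cell calls in all 20 alternatives run, and Gsg1, Meig1 and Odf2 kept theirs in all 11 omissions of a single library. With the 2 groups of 2-cell embryos fitted alone Gsg1, Meig1 and Odf2 lost their calls (adjusted p = 0.0548, 0.0743 and 0.0672), and Meig1 also did with a pseudocount of 5 (adjusted p = 0.0672). Cetn1 kept its call in 5 of the 11 omissions (adjusted p up to 0.109), Akap3 in 3 (up to 0.117) and Clgn in 2 (up to 0.136). The count of higher genes fell to 5 without ICSI zygote replicate 2, without ROSI 2-cell replicate 2 or 3, or without any 1 of the ICSI 2-cell libraries.

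**Figure D3:**
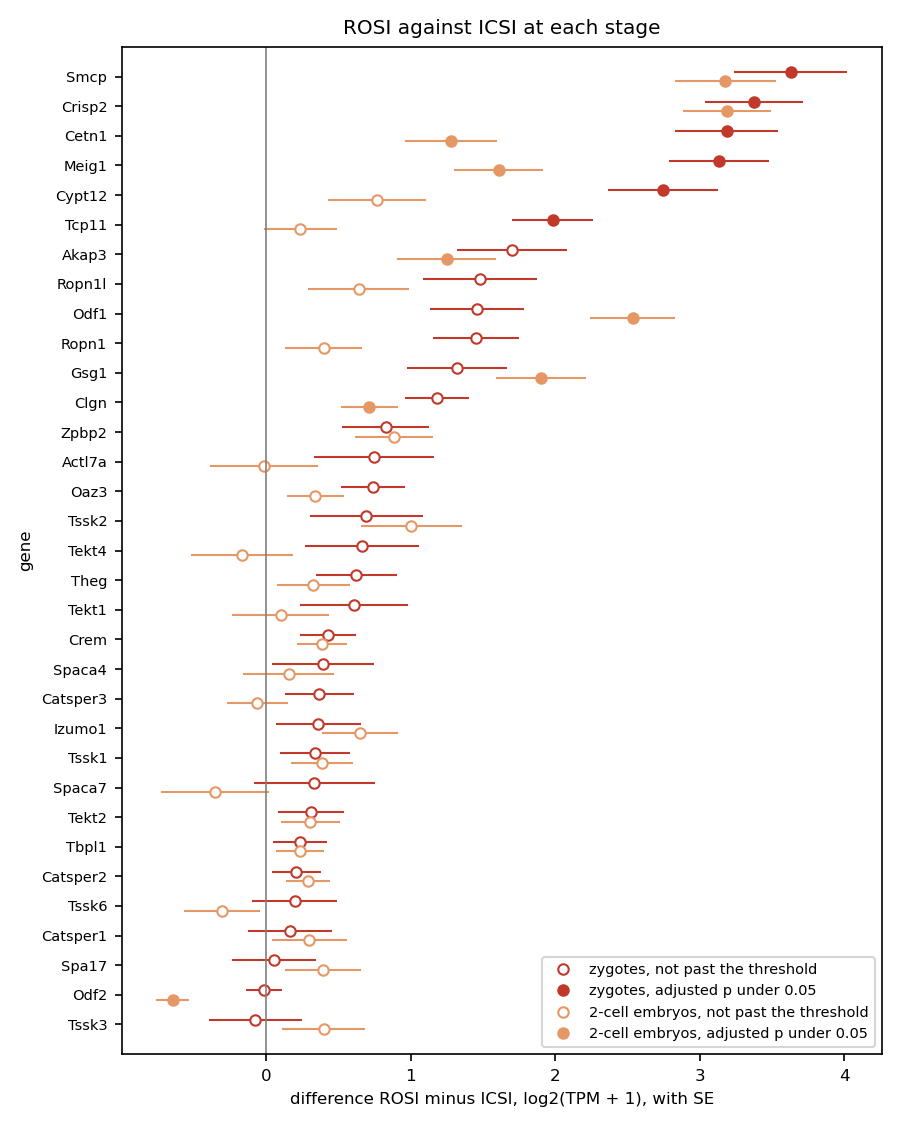
Difference between ROSI and ICSI in log2(TPM + 1) with its SE for the 33 tested transcripts, in zygotes (dark red) and 2-cell embryos (orange); filled points passed an adjusted p of 0.05. Zygote differences reach 3.63 for Smcp, and Odf2 is the one filled point below 0.

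Every ROSI 2-cell library was above every ICSI one in 17 of the 44 genes, beside 10.4% of all genes above 0, and below in 1, beside 6.68%. Cypt12, called in zygotes, was at 1.52, 3.69 and 1.77 TPM after ROSI and at 0.960, 1.21 and 0.532 TPM after ICSI. The groups did not overlap, but the difference of 0.77 did not pass (SE 0.34, adjusted p = 0.18). Tcp11 was at 11.6, 14.9 and 12.3 TPM against 9.73, 13.3 and 9.53 TPM, with overlap and a difference of 0.24 (adjusted p = 0.592). Zpbp2 was at 1.98, 1.39 and 2.60 TPM against 0.471, 0.991 and 0.391 TPM, a difference of 0.88 (SE 0.27, adjusted p = 0.0657).

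Tssk2, a kinase of the elongating spermatid, was at 1.61, 2.56 and 3.15 TPM in ROSI 2-cell embryos against 0.190, 0.721 and 1.32 TPM after ICSI, a difference of 1.01 (SE 0.35, adjusted p = 0.0966). Ropn1l was at 1.12, 1.56 and 1.33 TPM against 1.45, 0.366 and 0 TPM, and Spa17 at 9.27, 9.95 and 11.7 TPM against 4.23, 8.96 and 11.04 TPM, both overlapping. Crem was at 5.60, 6.11 and 6.79 TPM against 3.45, 4.98 and 5.17 TPM, without overlap, a difference of 0.39 (SE 0.17, adjusted p = 0.186). Tekt2 was at 11.2, 15.7 and 18.1 TPM against 9.73, 12.5 and 13.2 TPM, and Tbpl1 at 11.1, 13.1 and 18.0 TPM against 10.7, 11.8 and 12.4 TPM. Theg, Tekt2 and Tbpl1 overlapped, with differences of 0.33, 0.31 and 0.24.

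At this stage 3 transcripts were at 0 in all ICSI libraries. Besides Smcp these were Ropn1, a ropporin of the fibrous sheath, and Actl7b. Ropn1 was at 0.380, 0.208 and 0.373 TPM after ROSI, a mean of 0.320 TPM. The level of 3 reads was 0.590 TPM in ICSI replicate 1, the shallowest, and 0.186 and 0.164 TPM in replicates 2 and 3, so the ROSI mean was under it in 1 of the 3 ICSI libraries. These levels are approximate, since Ropn1 gave no whole reads with the annotated length, and its difference of 0.40 did not pass (SE 0.26, adjusted p = 0.37). Actl7b was at 0.258, 0 and 0 TPM after ROSI (4, 0 and 0 reads). Of the 44 genes, 14 were at 0 in 1 or more ICSI 2-cell libraries.

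The level left at the 2-cell stage after ROSI was then set against the zygote level. A set of 8 transcripts averaged at least 1 TPM in ROSI zygotes with an ICSI mean under 10% of it. For these the ROSI 2-cell mean was 4.75% of the ROSI zygote mean for Acr (acrosin, the acrosomal protease), 14.3% for Meig1, 14.97% for Ropn1 and 23.7% for Cetn1. It was 30.1% for Cypt12, 65.1% for Smcp, 65.8% for Akap3 and 73.5% for Crisp2. The median was 26.9%. These genes were chosen by a high ROSI zygote mean, which also divides each percentage and so can lower it. Of the genes called higher in ROSI 2-cell embryos, the rule leaves out Odf1, Gsg1 and Clgn. Their ROSI means went from 4.15 to 6.25, from 2.38 to 2.97 and from 6.16 to 4.31 TPM. ICSI 2-cell means of the set ran from 0 TPM (Smcp and Ropn1) to 0.902 TPM (Cypt12, beside 2.32 TPM after ROSI). The value for Acr rests on 0, 0.0675 and 0.161 TPM in the ROSI 2-cell libraries, each under the level of 3 reads there (0.178 to 0.232 TPM), so how far below that level it lay is not resolved.

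The spread between libraries was wide beside these differences. Taking every ROSI 2-cell library over every ROSI zygote library, the percentage ran from 0% to 32.3% for Acr, from 5.72% to 34.1% for Meig1, from 26.6% to 188% for Smcp, from 36.6% to 164% for Crisp2 and from 22.6% to 247% for Akap3. TPM are relative to all RNA of a library, and protein-coding genes took 65.9% to 71.5% of TPM in zygotes but 44.6% to 51.4% in 2-cell embryos. Relative to protein-coding TPM alone, the share left was 20.5% for Meig1, 32.9% for Cetn1, 92.5% for Smcp and 104% for Crisp2. 

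**Figure D4:**
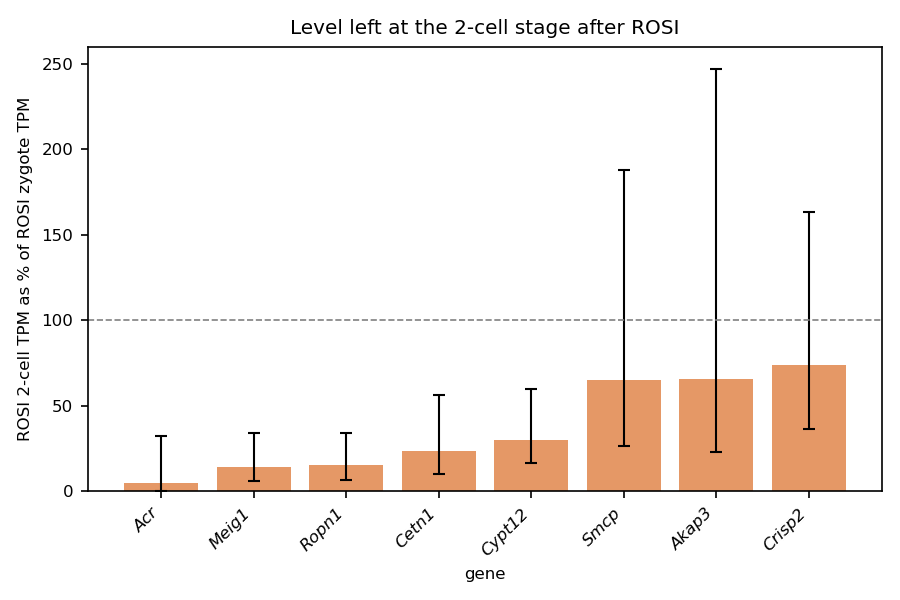
ROSI 2-cell mean as a percent of the ROSI zygote mean for 8 transcripts (bars; TPM), with lines from the lowest to the highest ratio of a 2-cell library to a zygote library; the dashed line is 100%. Bars run from 4.75% for Acr, whose 2-cell values are under the level of 3 reads, to 73.5% for Crisp2.

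Between the stages after ROSI, 10 of the 33 tested genes fell, beside 32.3% of all genes, and 6 rose, beside 35.6%. The change was -2.52 for Meig1 (SE 0.34, adjusted p = 6.65e-05), -2.29 for Spa17 (SE 0.29, adjusted p = 4.01e-05), -2.24 for Ropn1l (SE 0.39, adjusted p = 0.000431) and -1.64 for Cetn1 (SE 0.36, adjusted p = 0.00182), all on the log2(TPM + 1) scale. Tekt4, Cypt12, Odf2, Zpbp2, Ropn1 and the sperm calcium channel subunit Catsper3 also fell, with changes of -1.53, -1.43, -1.35, -1.26, -1.17 and -1.05. Theg rose by 2.81 (SE 0.28, adjusted p = 5.79e-06), Crem by 1.10 (SE 0.19, adjusted p = 0.000446) and Tssk6, Izumo1, Catsper2 and Tbpl1 by 0.93, 0.87, 0.57 and 0.53. Izumo1, the sperm protein that binds the egg, shares 654 exon bases with Rasip1 on the same strand, so its reads are uncertain. Smcp, Crisp2, Odf1, Gsg1 and Akap3 did not pass in this comparison.

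Both counts were thus no larger than the share over all genes. The median of all genes moved by 0.19 as deposited and by 0.44 under median-ratio scaling, a shift of 0.25. Under that scaling 10 genes were lower and 10 higher, and relative to protein-coding TPM 10 lower and 11 higher. Without ROSI zygote replicate 1 the lower count was 6. Without replicate 2 it was 16, and the higher count was 3.

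After ICSI, 7 of 33 genes were lower and 6 higher, beside 35% and 33% of all genes. Spa17 fell by 2.63 (SE 0.26, adjusted p = 5.08e-06), and the changes of the others were -1.40 for Ropn1l, -1.32 for Zpbp2, -0.995 for Meig1, -0.82 for Catsper1, -0.72 for Odf2 and -0.62 for Catsper3. Theg rose by 3.11 (SE 0.25, adjusted p = 9.52e-07), from at most 0.124 TPM in ICSI zygotes to 7.09, 8.53 and 8.99 TPM in ICSI 2-cell embryos. Tcp11 rose by 2.36 (SE 0.25, adjusted p = 8.73e-06), and Tssk6, Crem, Tbpl1 and Catsper2 rose by 1.43, 1.15, 0.53 and 0.49. Median-ratio scaling moved the median of all genes from 0.00 to 0.30, and gave 5 lower and 10 higher genes of the list. Relative to protein-coding TPM these were 5 and 12.

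Theg therefore reached 8.13, 15.9 and 8.85 TPM in ROSI 2-cell embryos, overlapping the ICSI ones, from a low level in every zygote. Tcp11 values overlapped between ROSI and ICSI at the 2-cell stage after not overlapping in zygotes. The difference between the ROSI and the ICSI stage change was tested as an interaction, and 0 of the 33 genes passed, beside 0.0137% of all genes above and 0.00456% below. At an unadjusted p under 0.05 there were 7 genes, 6 with a more negative change after ROSI, beside 4.93% of all genes, and 1, Odf1, with a more positive one, beside 10.1%. Their differences were -1.98 for Cypt12 (adjusted p = 0.133), -1.91 for Cetn1 (adjusted p = 0.125), -1.75 for Tcp11 (adjusted p = 0.102), -1.52 for Meig1 (adjusted p = 0.17), -1.05 for Ropn1 (adjusted p = 0.255), -0.63 for Odf2 (adjusted p = 0.138) and 1.08 for Odf1 (adjusted p = 0.288). Relative to protein-coding TPM, Tcp11, Cetn1, Odf2 and Cypt12 passed (adjusted p = 0.0182, 0.0423, 0.0274 and 0.0486), and without ROSI zygote replicate 2 Tcp11 did (adjusted p = 0.0491).

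**Figure D5:**
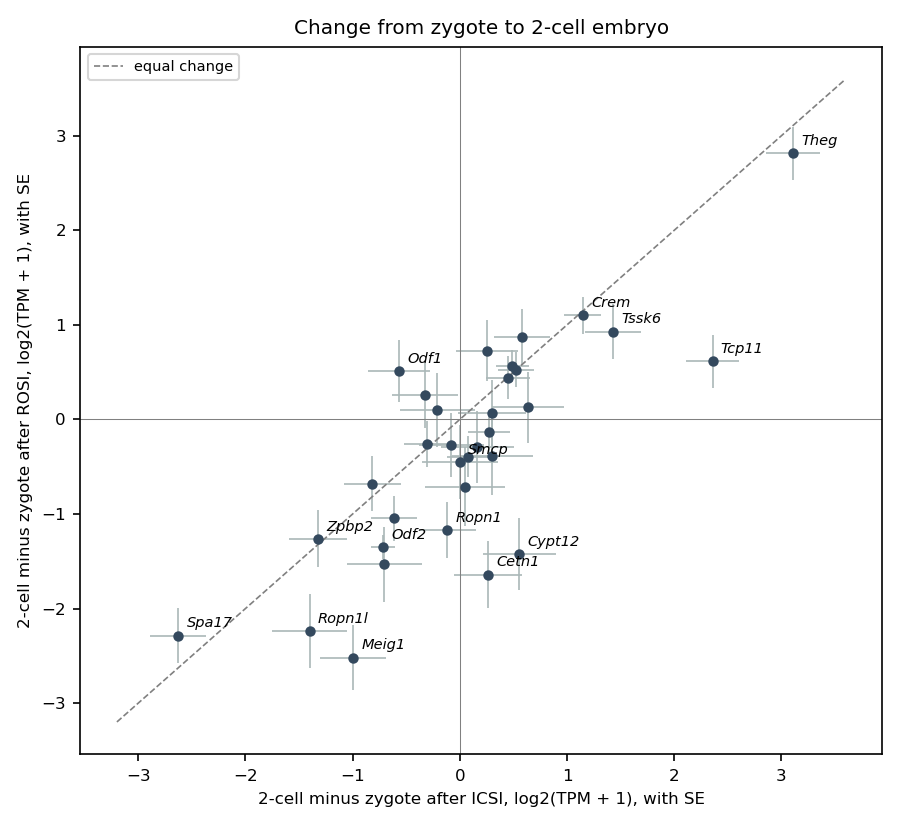
Change from zygote to 2-cell embryo in log2(TPM + 1) with SE, after ICSI (horizontal) and after ROSI (vertical), for the 33 tested transcripts; the dashed line marks equal change. Theg and Spa17 lie near that line at opposite ends, and Meig1, Cetn1, Cypt12 and Tcp11 lie below it.

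Of 129 further genes of the tail, the acrosome and head, and spermatid regulation, 127 were in the table and 90 passed the filter. In zygotes 1 of the 90 was higher after ROSI and 0 lower (limma), with a median difference of 0.19, and 25 were higher and 3 lower at an unadjusted p under 0.05. Of all genes tested, 0.114% and 0.0319% passed and 2.17% and 4.17% had such an unadjusted p. The 1 gene was Papolb, the testis poly(A) polymerase that Gsg1 binds, with means of 3.33 TPM after ROSI and 0.365 TPM after ICSI, a difference of 1.61 (SE 0.23, adjusted p = 0.0371). Its call was kept in 2 of 11 omissions: those of ROSI zygote replicate 2 and of ICSI 2-cell replicate 1. Relative to protein-coding TPM 9 were higher, and without ROSI zygote replicate 2 there were 8. The share of all genes called was not computed for these settings.

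In 2-cell embryos 6 of the 90 were higher and 4 lower, with a median of 0.16, counts near the shares of all genes (4.93% and 4.58%). The called genes are named as a description. Among tail genes Odf3 averaged 1.99 against 0.157 TPM (difference 1.37, adjusted p = 0.0133), the sperm glycolytic enzyme Gapdhs 1.73 against 0.179 TPM (1.21, adjusted p = 0.0198), the axonemal dynein chain Dnali1 1.73 against 0.288 TPM (1.10, adjusted p = 0.0317) and the testis tubulin Tuba3a 19.13 against 10.9 TPM (0.71, adjusted p = 0.0485). Tex101, a germ-cell surface protein, averaged 48.6 against 18.1 TPM (1.37, adjusted p = 0.00429), and Tdrd6, of the spermatid chromatoid body, 2.82 against 0.823 TPM (1.07, adjusted p = 0.0246). The 4 lower genes were Ybx2, Tdrd1, Kif17 and Brdt, with differences from -0.41 (Tdrd1) to -0.77 (Kif17), and their zygote means were at 242 to 354 TPM in both groups. Under median-ratio scaling 13 were higher and 4 lower, and relative to protein-coding TPM 25 and 4. The share of all genes called was not computed under these scalings, so these counts are a description. The median difference of all genes was 0.0445 as deposited, 0.0682 under median-ratio scaling and 0.1008 relative to protein-coding TPM. The higher count fell to 3 without ROSI 2-cell replicate 2 or ICSI 2-cell replicate 1 and to 2 without ICSI 2-cell replicate 2. The lower count fell to 1 without ROSI 2-cell replicate 1 or 2 or ICSI 2-cell replicate 2, and to 2 without ICSI 2-cell replicate 3.

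Markers of other cells that an injection could carry were counted beside these results. None of the tested markers of Sertoli cells (4 of 10 tested), Leydig cells (4 of 8), spermatogonia (9 of 10), spermatocytes (8 of 10), cumulus cells (4 of 10) or blood (2 of 4) passed in ROSI against ICSI zygotes (limma), and at an unadjusted p under 0.05 1 of the 31 was higher and 1 lower. The summed TPM of Sertoli markers was 10.1 to 10.6 in ROSI and 7.82 to 10.5 in ICSI zygotes, with Amh at 0 in both groups. For Leydig markers it was 6.13 to 7.01 against 4.66 to 6.02, with Lhcgr at 0 in ROSI zygotes, and for spermatocyte markers 123 to 136 against 146 to 161. Spermatogonial markers summed to 1362 to 1426 against 1403 to 1579, of which Uchl1 alone averaged 1349 and 1430 TPM. That sum therefore says little of the other spermatogonial markers. Cumulus markers summed to 10.3 to 14.1 against 13.6 to 15.3, and blood markers to 0.378 to 0.413 against 0.262 to 0.613, with Hbb-bs at 0 in both groups. The Leydig sum was higher in both ROSI zygotes than in all 3 ICSI zygotes, and its part in the results was not tested. In 2-cell embryos the Sertoli sum was 82.7 to 99.0 after ROSI against 69.0 to 79.7 after ICSI and the spermatocyte sum 372 to 418 against 320 to 362. The cumulus sum was 45.4 to 53.1 against 31.4 to 43.6. The spermatogonial sum was lower after ROSI, at 222 to 294 against 372 to 408, with Uchl1 averaging 214 and 357 TPM of it. The Sertoli sum was above its zygote level after both methods, with Gata1 and Tsx called higher after each. These sums do not tell RNA of the embryo from RNA of carried cells. Leydig and blood sums overlapped. Of the 31 tested markers Sycp3, of the meiotic chromosome axis, was higher after ROSI (0.56, SE 0.13, adjusted p = 0.0248), and Uchl1, a marker of spermatogonia that is also high in zygotes, was lower (-0.75, SE 0.11, adjusted p = 0.00558). Their part in the 2-cell results was not tested.

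Embryo stage markers checked the labels, and many also differed between ROSI and ICSI 2-cell embryos. Of 12 oocyte markers 11 fell from zygote to 2-cell embryo after either method, and of 10 markers of the 2-cell embryo 8 rose after ROSI and 9 after ICSI. Between ROSI and ICSI zygotes 0 of these 22 passed (limma), and 1 was higher and 6 lower at an unadjusted p under 0.05. In ROSI 2-cell embryos 6 of the 12 oocyte markers and 7 of the 10 markers of the 2-cell embryo were lower than after ICSI, and the latter summed to 459 to 660 TPM against 931 to 977 TPM. The part of this difference in the 2-cell values of Smcp, Crisp2, Odf1 and the other genes was not tested. In zygotes the 10 markers of the 2-cell embryo summed to 82.2 to 93.6 TPM after ROSI and 86.4 to 119 TPM after ICSI, overlapping. The 12 oocyte markers did not overlap there, at 8405 to 9047 TPM after ROSI against 9884 to 10987 TPM after ICSI, and their part in the zygote results was not tested either.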

How the data were processed

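RNA was measured in 11 libraries of mouse embryos, 2 of ROSI zygotes and 3 of each other group. The authors deposited TPM per gene, and per the submitters' processing notes fastp, Bowtie2, STAR 2.7.4a and featureCounts were used with mm10, with no role or order given. The annotation, the strand setting and filters are not given in the sources used here. From TPM, reads were recovered with GENCODE M21 exon lengths (47102 genes matched). Between 88.9% and 91.5% of values under 100 reads lay within 0.01 of a whole number, and intervals and floors of 3 reads cover counting error only. Genes with at least 1 TPM in 2 libraries (21938) entered a limma 3.58.1 model (R 4.3.3, eBayes with trend) of log2(TPM + 1) with 4 group means, Benjamini-Hochberg adjusted per contrast, threshold 0.05, tested on simulated data. Genes, lists and the promoter motifs were chosen with earlier results of these data known. Values are given in full for genes past the threshold in ROSI against ICSI at either stage or averaging at least 5 TPM in a group, 18 genes. Others are given by range, count or example. Promoters came from RefSeq. Alternatives were other pseudocounts, filters, scalings and models, and leaving out each library.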

Additional observations from a re-analysis of the deposited data

How the results depend on the processing

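The 44 called values of listed genes were recomputed under each alternative that gave one, 865 values: 763 kept direction and call, 102 kept direction without passing, and 0 reversed. With a pseudocount of 5, 2 listed genes were higher in ROSI zygotes in place of 6, and 4 in place of 8 in ROSI 2-cell embryos. With the 2 groups of a contrast fitted alone, these counts were 0 and 3, and the lower count in 2-cell embryos was 0. Without a filter, or with one of 5 TPM, 5 were higher in ROSI 2-cell embryos. The filter of 5 TPM left 6 lower and 3 higher genes between the stages after ROSI and 4 lower after ICSI, since fewer genes were tested. Median-ratio scaling gave 10 higher genes after either method, and protein-coding TPM 11 after ROSI, 12 after ICSI and 4 whose stage change differed. Leaving out 1 library at a time gave 1 to 9 higher and 0 to 0 lower genes in ROSI zygotes, and 5 to 8 higher and 1 to 1 lower in ROSI 2-cell embryos. Between the stages it gave 6 to 16 lower and 3 to 8 higher after ROSI, 5 to 8 lower and 5 to 8 higher after ICSI, and 0 to 1 that differed.

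For the 90 other pathway genes, the higher count in ROSI zygotes, 1, became 3 with a pseudocount of 0.1, 0 with 5, 3 without a filter, 9 with protein-coding TPM, 2 without a trend and 0 with the groups alone. In 2-cell embryos the 6 higher became 10 with a pseudocount of 0.1, 3 without a filter, 13 and 25 under the scalings and 0 with the groups alone. The 4 lower became 2 without a trend and 0 with the groups alone. Omissions gave 0 to 8 higher and 0 to 0 lower in zygotes, and 2 to 9 higher and 1 to 4 lower in 2-cell embryos. The share of all genes called was not computed for the alternatives, so their counts show only how the main counts move. Except where stated, the cause was not tested.

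Replicate numbers are shared between groups, but the labels do not say that they pair libraries. The correlation of deviations over 15 same-numbered pairs ran from -0.0432 to 0.3301. The 2 above 0.1 were ROSI with ICSI zygotes, 0.3301 for replicates 1 and 0.2154 for replicates 2. ROSI zygote replicate 2 with ICSI zygote replicate 3, of unlike number, gave 0.2057. The deviations of 2 ROSI zygotes mirror each other, so these values are not independent. Pairing within zygotes is thus not settled, and the main fit used no block because the labels state no pairing. With the replicate block, 3 listed genes were higher in ROSI zygotes in place of 6. In ROSI 2-cell embryos 6 were higher and 1 lower, and 0 of the other pathway genes were higher in zygotes. The lowest depth, 8.48 M reads (M, 1000000) in ICSI 2-cell replicate 1, limits what a 0 shows at that stage.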
